A study of Mus musculus with 2 samples.

Results

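The 9 genes described here encode proteins that restrain the NF-kB transcription factors. They are Nfkbia, Nfkbib and Nfkbie, which encode the classical inhibitors IkB-alpha, IkB-beta and IkB-epsilon; Nfkbid, Nfkbiz and Bcl3, which encode the nuclear IkB-like proteins IkB-NS, IkB-zeta and Bcl-3; and Tnfaip3, Tnip1 and Cyld, which encode the ubiquitin regulators A20, ABIN1 and CYLD. They were chosen by name, with earlier results of these data known, and all 9 are among the 32285 genes of the deposited matrices. Pancreatic tumours of KPPC mice given vehicle or takinib were profiled cell by cell, with 1 library for each group. Takinib, an inhibitor of the kinase TAK1, was given at 50 mg/kg, and in both groups mice were 6 weeks old and treatment ran for 14 days. The labels name the model only as KPPC; its alleles, its Cre driver and the number of mice pooled in each library are not given in the sources used here. With 1 sample a group no test was possible, so ratios below compare 2 libraries and their intervals cover counting error only.

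In resting cells the classical IkB proteins hold NF-kB dimers in the cytoplasm. Signals from receptors of TNF, IL-1 or microbial products pass through TAK1 to the IkB kinase complex, which marks the IkB proteins for destruction and frees the dimers. Nfkbia, Tnfaip3 and several of the others are themselves transcribed by NF-kB, which closes a negative feedback loop, so that their RNA is often read as a sign of recent pathway activity. A20 and ABIN1 act together on ubiquitin chains that carry the upstream signal, CYLD removes such chains, and the nuclear IkB-like proteins sit on NF-kB bound to DNA and can either restrain or aid transcription of chosen targets.

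After filtering, 9558 vehicle cells with a median of 3556 unique molecular identifiers (UMIs) and 25183 takinib cells with a median of 2887 remained, and 359 cell barcodes occurred in both. Cells were clustered and named from marker genes, and 7 classes held at least 100 cells in each library. The macrophage-like class had 4851 vehicle and 6218 takinib cells, the neutrophil-like class 270 and 12055, and the epithelial-like class 1727 and 1882. The fibroblast-like class had 698 and 352, the endothelial-like class 716 and 103, the T-like class 250 and 1265, and the B-like class 213 and 1262. Vehicle cells carried Xist in some barcodes and Y-linked transcripts in others and so came from mice of both sexes, while takinib cells carried no Y-linked UMI. The libraries were written by different versions of Cell Ranger and had median mitochondrial shares of 8.70% and 1.79%, so treatment and library cannot be told apart. The 2 libraries also differed in RNA of neutrophils found in other cells. S100a8 and S100a9, which encode abundant proteins of neutrophils, summed to 97.0 to 726 CPM (UMIs per 1000000 UMIs of the class) in the 6 other classes in vehicle and to 7398 to 42984 CPM in takinib. All 9 listed neutrophil markers had UMIs in each of these classes in takinib. In vehicle all 9 did in macrophage-like and epithelial-like cells, and 8 in fibroblast-like, endothelial-like, T-like and B-like cells, so marker presence alone hardly differed. Takinib neutrophil-like cells had the highest Nfkbia, Nfkbib, Nfkbiz, Bcl3, Tnfaip3 and Tnip1 of any compared class, with intervals that did not overlap the next. Their Nfkbid was 122 CPM, against 12.45 in takinib epithelial-like and 15.9 in takinib fibroblast-like cells. Ratios in takinib cells with the least S100a8 and S100a9, and after subtraction of the neutrophil profile, are therefore given for many results, most of them in later paragraphs.

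The bases upstream of the start of transcription are shown because they carry the best known link between these genes and NF-kB. RefSeq start sites of 8 members were in the promoter table used here (GRCm38.p6), Nfkbiz being the other. The 10-base kappaB consensus was searched on both strands in the 250 bases before each start. It was found for 6 of the 8 members, namely Nfkbia, Nfkbie, Nfkbid, Tnfaip3, Tnip1 and Cyld, against 8.23% of 27025 genes in the same table. No match lay in these windows for Nfkbib and Bcl3, which says only that these letters are not there. The windows of 4 members follow, read 5′ to 3′ on the strand of the gene, with matches in capitals.
Nfkbia, chr12:55492648-55492897, minus strand: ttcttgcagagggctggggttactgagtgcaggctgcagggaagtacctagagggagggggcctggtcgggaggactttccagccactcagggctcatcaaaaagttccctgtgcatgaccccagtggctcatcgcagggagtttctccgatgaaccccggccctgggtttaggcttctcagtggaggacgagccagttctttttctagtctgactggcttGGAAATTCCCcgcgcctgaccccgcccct
Nfkbie, chr17:45555450-45555699, plus strand: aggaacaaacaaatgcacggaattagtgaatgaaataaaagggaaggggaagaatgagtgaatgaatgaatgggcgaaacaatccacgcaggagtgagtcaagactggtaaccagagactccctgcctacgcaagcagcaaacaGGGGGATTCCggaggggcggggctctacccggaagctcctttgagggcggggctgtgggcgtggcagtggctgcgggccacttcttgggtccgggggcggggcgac
Tnip1, chr11:54962941-54963190, minus strand: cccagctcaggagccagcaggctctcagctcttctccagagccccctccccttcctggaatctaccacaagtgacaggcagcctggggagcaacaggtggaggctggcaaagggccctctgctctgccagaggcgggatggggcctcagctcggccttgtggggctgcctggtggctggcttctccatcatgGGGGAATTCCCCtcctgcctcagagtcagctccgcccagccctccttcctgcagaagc
Cyld, chr8:88696778-88697027, plus strand: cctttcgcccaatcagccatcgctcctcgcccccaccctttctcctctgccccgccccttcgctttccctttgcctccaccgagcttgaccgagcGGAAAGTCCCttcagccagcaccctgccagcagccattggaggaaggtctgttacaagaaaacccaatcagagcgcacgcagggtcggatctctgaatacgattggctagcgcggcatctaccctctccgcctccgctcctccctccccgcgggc
In Nfkbia the match begins 29 bases before the start. The capitals in Tnip1 hold 3 overlapping matches, which begin 58, 57 and 56 bases before its start and were counted separately; 0.163% of genes had 3 or more. The first RefSeq start of Tnfaip3 had 2 matches, and 110 bases of its window lie in annotated exons of the gene, so only 30 bases around each match are given, on the minus strand of chromosome 10.
Tnfaip3, chr10:19015516-19015545: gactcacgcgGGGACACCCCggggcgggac
Tnfaip3, chr10:19015411-19015440: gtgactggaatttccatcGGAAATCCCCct
Of 3 starts of Nfkbid, 1 had matches, 226 and 181 bases before it, on the plus strand of chromosome 7.
Nfkbid, chr7:30422170-30422199: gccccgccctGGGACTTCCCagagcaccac
Nfkbid, chr7:30422215-30422244: gggccgaacaGGAATTCCCCgtgcgcgggg
A match is a run of letters and not a measured binding site. The 3 genes with no sequence shown lie at chr7:28758251-28767512 (Nfkbib), chr16:55811375-55838899 (Nfkbiz) and chr7:19808462-19822770 (Bcl3), all on the minus strand of GRCm38. In GENCODE M21 exons of Nfkbib overlap exons of Ccer2 and Sirt2 on the other strand, and those of Bcl3 overlap Gm16175. How the authors' counting treated strand is not given in the sources used here.

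Among the classical inhibitors, Nfkbia was higher in takinib in all 7 classes. In macrophage-like cells it stood at 364 CPM in vehicle (95% exact Poisson interval 356 to 372) and 796 in takinib (788 to 805), a ratio of 2.19 (2.13 to 2.24). In epithelial-like cells it went from 72.3 CPM (67.5 to 77.4) to 431 (422 to 440), a ratio of 5.96 (5.55 to 6.40). In no class did the intervals of the 2 libraries overlap, and the ratio ran from 2.01 in neutrophil-like cells to 7.56 in B-like cells. Fibroblast-like cells had 114 and 595 CPM (ratio 5.24, and 3.35 within their cluster 18), endothelial-like cells 257 and 1035 (4.03), and T-like cells 230 and 861 (3.74). B-like cells had 190 CPM in vehicle and 1441 in takinib. Neutrophil-like cells led in both libraries, with 1434 and 2877 CPM. Next in vehicle came macrophage-like cells, then endothelial-like, T-like and B-like cells, whose neighbouring intervals overlapped, and epithelial-like cells were lowest in both libraries. In takinib B-like cells came next after neutrophil-like cells, followed by endothelial-like, T-like and macrophage-like cells. Most of these Nfkbia ratios fell under 2 in takinib cells with the least S100a8 and S100a9. They were then 1.33 in macrophage-like, 1.63 in epithelial-like, 1.66 in endothelial-like (26 cells), 1.77 in T-like and 1.80 in B-like cells. Within cluster 13, which held most vehicle neutrophil-like cells, the ratio was 1.451. Against male vehicle neutrophil-like cells it was 1.52 (1.29 to 1.81). The fibroblast-like ratio stayed at 3.25.

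Nfkbib, whose product is released more slowly than IkB-alpha, and Nfkbie, a later-acting inhibitor, had smaller ratios in most classes. Nfkbib was 23.6 CPM in vehicle and 43.9 in takinib macrophage-like cells (ratio 1.86, 1.69 to 2.06), and 20.4 and 37.7 in epithelial-like cells (1.85, 1.60 to 2.14). Its ratio passed 2 in neutrophil-like cells (30.5 and 120 CPM, ratio 3.95, 2.20 to 7.91), in fibroblast-like cells (14.5 and 40.6, ratio 2.80) and in B-like cells (21.4 and 75.1, ratio 3.50). Vehicle values in neutrophil-like and B-like cells rest on 11 and 9 UMIs. Nfkbie passed 2 in T-like cells only among the 6 classes with enough counts, at 9.66 and 30.6 CPM (ratio 3.17, 1.32 to 9.97, from 5 vehicle UMIs). Elsewhere its ratio lay between 1.19 in B-like and 1.75 in neutrophil-like cells. In endothelial-like cells Nfkbib, Nfkbie and Nfkbid had under 50 UMIs in each library and were not called.

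**Figure D1:**
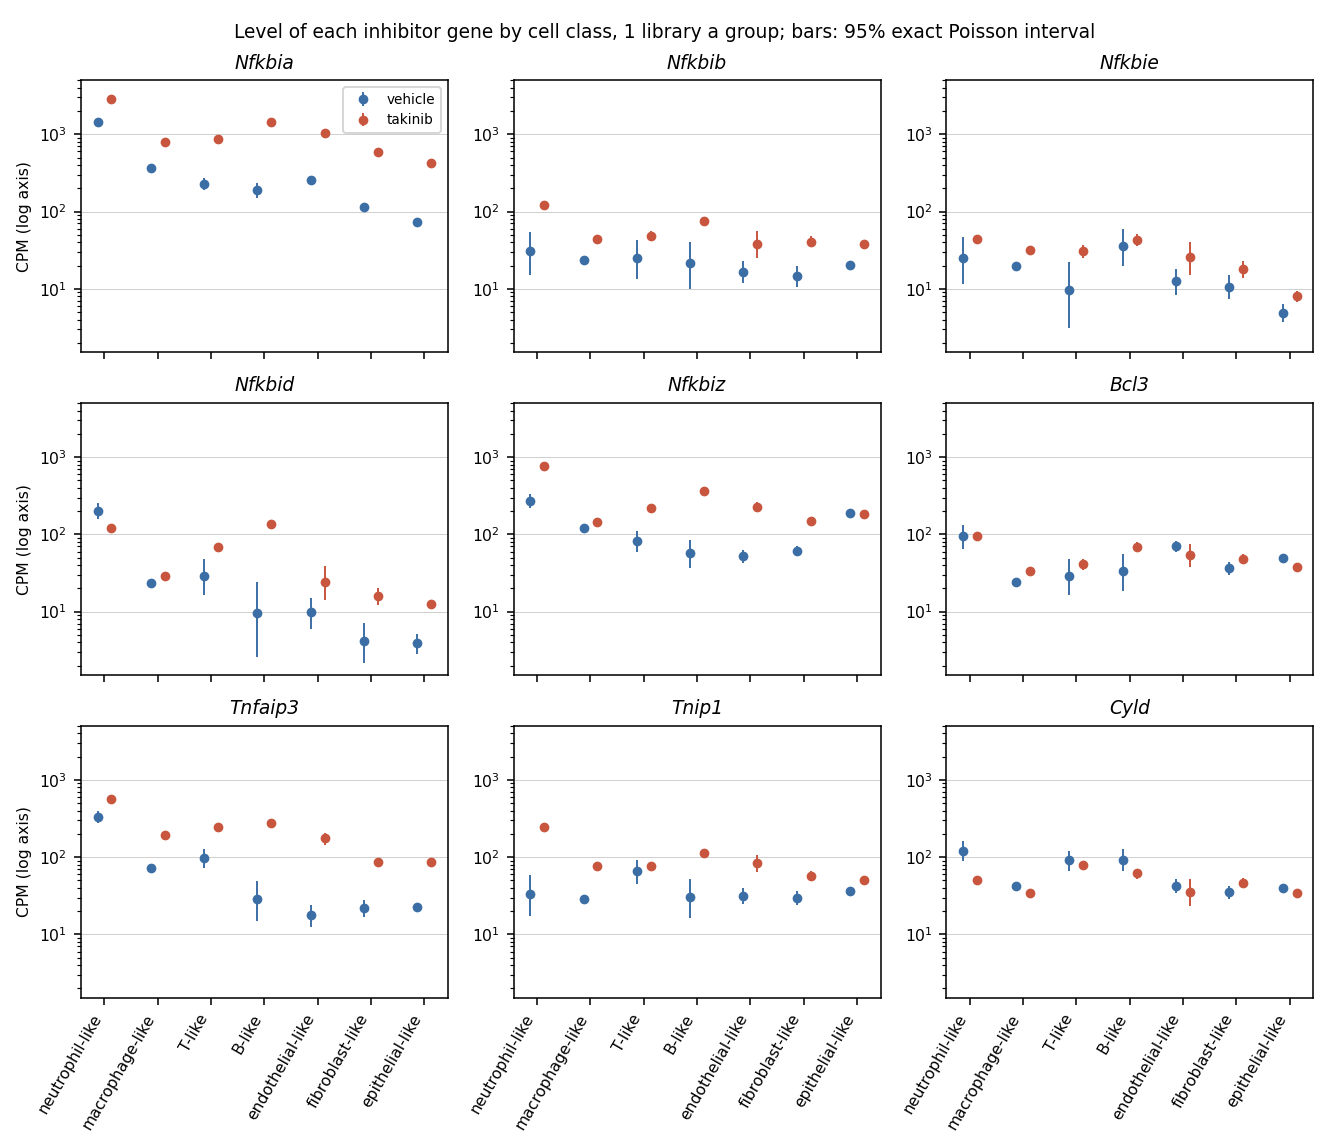
Level of each gene in CPM (log axis) in 7 cell classes of the vehicle and takinib libraries, with 95% exact Poisson intervals, 1 library a group. Takinib lies above vehicle for Nfkbia in all 7 classes, while Cyld lies below in 6. The Nfkbia ratio is smallest in neutrophil-like cells (2877 against 1434 CPM) and largest in B-like cells (1441 against 190).

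The nuclear IkB-like genes did not move as one group. Nfkbiz, whose product is needed for secondary targets such as Lcn2 and Il6, was almost level in epithelial-like cells, at 189 CPM in vehicle and 185 in takinib (ratio 0.98, 0.93 to 1.03). It was 120 and 145 CPM in macrophage-like cells (1.20, 1.15 to 1.26). It was over 2-fold higher in the other 5 classes: 271 and 770 CPM in neutrophil-like cells (2.84), 61.4 and 147 in fibroblast-like cells (2.39, and 1.27 within their cluster 18), 52.0 and 228 in endothelial-like cells (4.38), 81.1 and 217 in T-like cells (2.67) and 57.1 and 369 in B-like cells (6.46). Outside neutrophil-like cells these Nfkbiz ratios fell in takinib cells with the least S100a8 and S100a9. They were 1.13 (0.68 to 1.93) in B-like, 1.18 (0.82 to 1.73) in T-like and 1.31 (1.03 to 1.66) in fibroblast-like cells. The endothelial-like ratio was 0.92 (0.43 to 1.76, from 10 takinib UMIs). After subtraction of the neutrophil profile the ratio was 1.71 in T-like and 1.54 in fibroblast-like cells. It stayed past 2-fold in endothelial-like and B-like cells. Epithelial-like cells ranked next to neutrophil-like cells for Nfkbiz in vehicle and below 4 other classes in takinib.

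Nfkbid, first described in lymphocytes, had the largest ratio of any member in B-like cells. There it was 9.52 CPM in vehicle (2.60 to 24.4, from 4 UMIs in 213 cells) and 135 in takinib (122 to 149, from 402 UMIs in 1262 cells), a ratio of 14.2 (5.51 to 52.4). B-like cells thereby matched neutrophil-like cells in takinib, whose 122 CPM had an overlapping interval. Its ratio was 3.20 in epithelial-like cells (3.89 and 12.45 CPM), 3.85 in fibroblast-like cells (4.14 and 15.9) and 2.38 in T-like cells (28.98 and 69.1). Neutrophil-like cells had 199 and 122 CPM (0.61, 0.49 to 0.79), a direction that did not hold in all settings. The ratio was 1.06 with each library clustered on its own and 0.95 with the median gene set to a ratio of 1. Against male vehicle cells it was 1.00 (0.53 to 2.20, from 9 vehicle UMIs). Bcl3 was 94.1 and 95.2 CPM in neutrophil-like cells (1.01), 49.1 and 38.3 in epithelial-like cells (0.78, 0.70 to 0.87), and passed 2 in B-like cells alone, at 33.3 and 69.3 CPM (2.08, 1.21 to 3.87). That call ended in takinib B-like cells with the least neutrophil RNA (1.21, 0.62 to 2.47) and after subtraction of the neutrophil profile (1.71).

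Tnfaip3, which encodes A20, was like Nfkbia higher in takinib in every compared class. It was 72.7 CPM in vehicle and 191 in takinib macrophage-like cells (2.63, 2.49 to 2.78), and 22.5 and 86.8 in epithelial-like cells (3.86, 3.39 to 4.41). Fibroblast-like cells had 21.7 and 87.1 CPM (4.01) and T-like cells 98.5 and 249.5 (2.53). Its largest ratios were in endothelial-like cells, from 17.6 to 175 CPM (9.92, 6.84 to 14.7), and in B-like cells, from 28.6 to 281 (9.85, 5.61 to 19.1). Only neutrophil-like cells stayed under 2-fold, at 335 and 561 CPM (1.67, 1.40 to 2.02). Tnip1, which encodes the A20 partner ABIN1, showed another order. Its ratio was 7.48 in neutrophil-like cells (33.2 and 248 CPM, 4.28 to 14.5, from 12 vehicle UMIs), 2.74 in macrophage-like cells (28.4 and 77.8), 2.66 in endothelial-like cells (31.6 and 84.0) and 3.69 in B-like cells (31.0 and 114). It was 1.17 in T-like cells (65.7 and 76.9 CPM, 0.82 to 1.73), where its interval included 1, and 1.40 in epithelial-like cells. In takinib B-like cells with the least S100a8 and S100a9 the Tnip1 ratio was 1.17 (0.58 to 2.47). After subtraction of the neutrophil profile it was 1.61 in B-like, 1.52 in endothelial-like and 2.39 in macrophage-like cells. In vehicle Tnip1 was highest in T-like cells, with an interval of 45.5 to 91.8 CPM that overlapped those of neutrophil-like and B-like cells, and in takinib it was highest in neutrophil-like cells.

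Cyld, the deubiquitinase, was the member that was lower in takinib in most classes. It was 42.3 and 34.6 CPM in macrophage-like cells (0.82, 0.75 to 0.89), 40.2 and 34.7 in epithelial-like cells (0.86, 0.77 to 0.97) and 92.9 and 61.6 in B-like cells (0.66, 0.47 to 0.96). In neutrophil-like cells it was 122 CPM in vehicle and 50.4 in takinib (0.41, 0.31 to 0.57), the only value past 2-fold lower. It was no longer past 2-fold with each library clustered on its own (0.73) or with the median gene set to a ratio of 1 (0.64). Against male vehicle cells it was 0.75 (0.32 to 2.30, from 5 vehicle UMIs). Fibroblast-like cells had 35.2 and 46.2 CPM (1.31, 1.02 to 1.69), and 46.9 and 46.4 (0.99, 0.72 to 1.38) within cluster 18, which held most of them in takinib. In T-like and endothelial-like cells the interval of the ratio included 1.

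**Figure D2:**
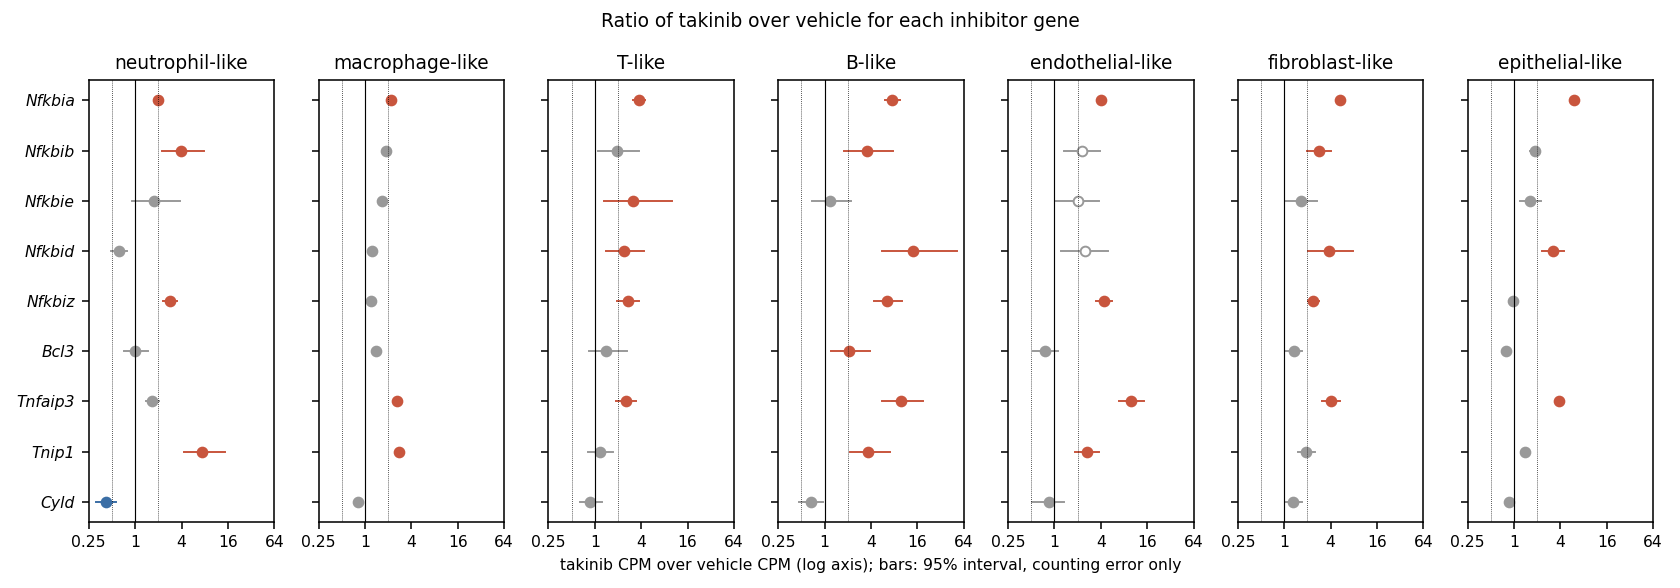
Takinib CPM over vehicle CPM (log axis) for each gene in 7 cell classes, with 95% intervals for counting error. Red points are at least 2-fold higher, the blue point at least 2-fold lower, grey points in between and open points have under 50 UMIs in each library; Nfkbia is red in all 7 classes and Cyld is blue in neutrophil-like cells, at 0.41.

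Counts of members called are given beside the same over all genes. A gene was called with at least 50 UMIs in a library and a ratio of at least 2 or at most 0.5. In macrophage-like cells 3 of 9 members were higher, where 6.59% of 11772 genes were. In neutrophil-like cells it was 4 of 9 against 6.61%, in epithelial-like cells 3 of 9 against 7.53%, and in fibroblast-like cells 5 of 9 against 7.07%. In endothelial-like cells it was 4 of the 6 with enough counts against 4.1%, in T-like cells 5 of 9 against 8.47%, and in B-like cells 7 of 9 against 13.9%. Many members reached 50 UMIs through takinib alone, 8 of 9 in B-like, 7 in T-like, 5 in neutrophil-like and 3 in fibroblast-like cells, Nfkbid in epithelial-like and Tnfaip3 in endothelial-like cells, and a member that did so is one with more counts in takinib, so these counts support nothing on their own. No member was called lower in macrophage-like (5.89% of all genes), epithelial-like (7.57%), fibroblast-like (10.8%), endothelial-like (11.2%), T-like (3.02%) or B-like cells (5.34%). The 1 member called lower, Cyld in neutrophil-like cells, stands beside 36% of 10085 genes called lower there, where the median gene had a ratio of 0.65 and vehicle held 361219 UMIs. Median ratios over members with enough counts were 1.64, 1.75, 1.62, 2.39, 3.34, 2.38 and 3.69 in the order of classes just given. The median of all genes lay between 0.87 and 0.98 in the classes other than neutrophil-like.

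Within the takinib library, most members were higher in cells with more S100a8 and S100a9, in classes other than neutrophil-like cells. Takinib cells of each class were split into 4 equal parts by that share, a comparison chosen after seeing the data. In epithelial-like cells Nfkbia was 118, 215, 528 and 1138 CPM from the lowest part to the highest, where the tracers were 144, 948, 7454 and 38260 CPM. Vehicle epithelial-like cells had 72.3 CPM of Nfkbia with 98.3 of the tracers. Thus at near vehicle tracer levels the Nfkbia ratio was 1.63 (1.48 to 1.80) in place of 5.96. Nfkbid in these cells was 1.68, 3.72, 16.01 and 38.1 CPM, and in the lowest part its ratio to vehicle was 0.43 (0.21 to 0.83, from 12 UMIs). Tnfaip3 there was 27.4 CPM, a ratio of 1.22 (1.01 to 1.47). Nfkbiz, level in the class as a whole, was 105 CPM in the lowest part, a ratio of 0.56 (0.51 to 0.60), and 386 in the highest. The parts differed in kind of cell here too, cluster 6 being 62.0% of the lowest and cluster 7 the largest in the other 3. Over whole clusters the Nfkbia ratio was 6.31 in cluster 6 (45.5 and 287 CPM) and 6.19 in cluster 7 (81.9 and 507).

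In macrophage-like cells the lowest part, with 367 CPM of tracers against 273 in vehicle, had ratios of 1.33 (1.29 to 1.38) for Nfkbia, 1.70 (1.58 to 1.82) for Tnfaip3, 1.60 (1.42 to 1.80) for Tnip1 and 0.70 (0.65 to 0.75) for Nfkbiz. These parts also differed in kind of cell: a cluster led by U90926 and Saa3, cluster 4, made up 14.9% of the lowest and 54.9% of the highest. In T-like cells Nfkbia was 1.77 (1.446 to 2.18) and Tnfaip3 1.70 (1.24 to 2.36) times vehicle in the lowest part. Over the lowest part of a class, members called higher numbered 0 of 9 in macrophage-like cells (4.1% of all genes), 0 of 8 in epithelial-like cells (3.86%) and 0 of 5 in T-like cells (6.01%). They numbered 2 of 7 in fibroblast-like cells (6.58%) and 2 of 3 in B-like cells (7.42%). Nfkbid and Tnfaip3 in B-like cells and Nfkbib in fibroblast-like cells reached 50 UMIs through takinib alone, so these counts support nothing on their own. Endothelial-like cells, 26 in the lowest part, were not counted.

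Ratios of at least 2 in the lowest part were found in fibroblast-like and B-like cells, and for Nfkbie in T-like cells (2.73, 1.05 to 8.98, from 5 vehicle and 31 takinib UMIs). The 26 endothelial-like cells had such ratios for Tnfaip3 (3.25, 1.55 to 6.36, from 12 takinib UMIs) and Tnip1 (2.27, 1.21 to 4.02, from 15 takinib UMIs). Fibroblast-like cells in the lowest part, 88 cells, held Nfkbia at 368 CPM, a ratio of 3.25 (2.83 to 3.73), and Nfkbib at 40.0 CPM (2.76, 1.83 to 4.19), with tracers at 169 CPM against 97.0 in vehicle. Of these 88 cells 90.9% were in cluster 18, whose vehicle cells had 182 CPM of Nfkbia and 15.3 of Nfkbib, whereas most vehicle fibroblast-like cells were in cluster 17. Their Tnfaip3 was 21.3 CPM, a ratio of 0.98 (0.62 to 1.52), and Nfkbid 3.33 CPM, a ratio of 0.80 (0.22 to 2.45). In B-like cells Nfkbid was 142, 110, 148 and 134 CPM over the 4 parts, while the tracers went from 1132 to 105696. Takinib neutrophil-like cells held 122 CPM of Nfkbid, so more or less of their RNA would hardly move this level. The lowest part gave a ratio of 14.96 (5.67 to 55.9) for Nfkbid and 2.82 (1.503 to 5.76) for Tnfaip3. Nfkbia in B-like cells was 343 CPM in the lowest part (1.80, 1.39 to 2.34) and 2498 in the highest. The highest part of the B-like cells had tracer levels near those of takinib neutrophil-like cells, which were 132592 CPM. Cells that hold RNA of more than 1 cell were not told apart from free RNA here.

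**Figure D3:**
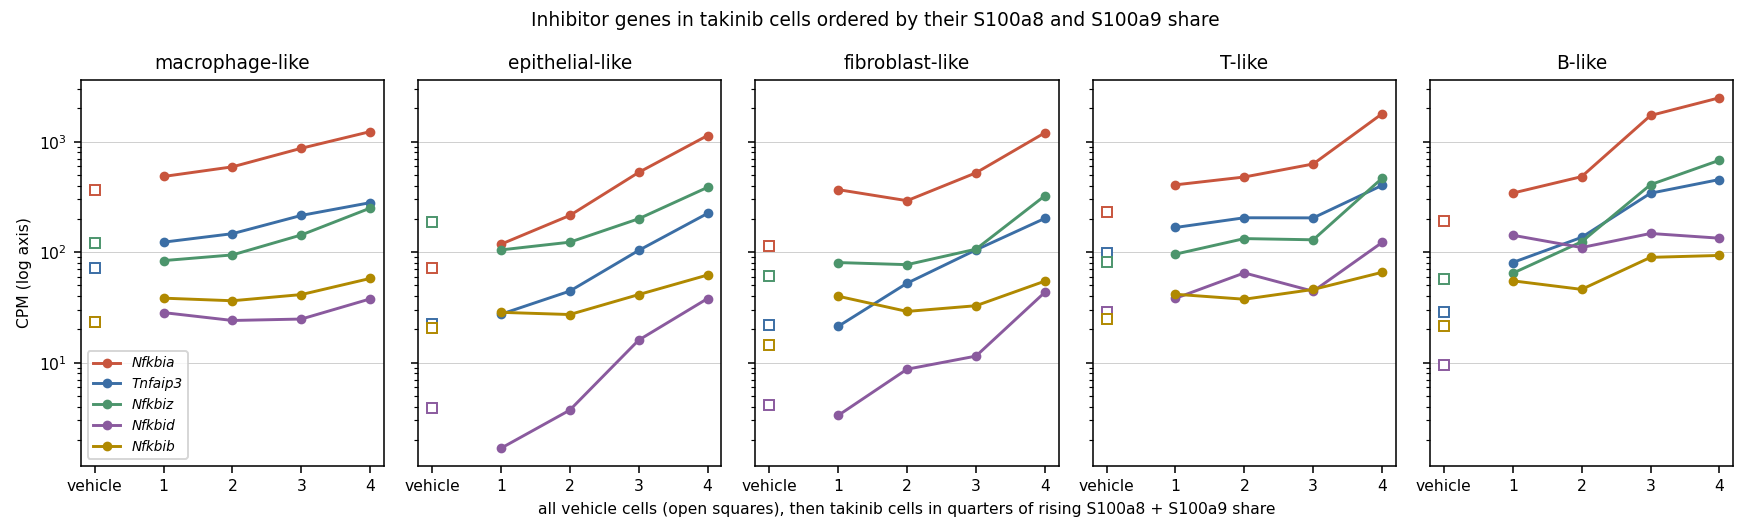
Levels of 5 genes (CPM, log axis) in all vehicle cells of a class (open squares) and in takinib cells of the class in 4 equal parts of rising S100a8 and S100a9 share (filled points, 1 lowest). Nfkbia in epithelial-like cells climbs from 118 to 1138 CPM over the parts. Nfkbid in B-like cells stays between 110 and 148 CPM, near the 122 CPM of takinib neutrophil-like cells.

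Subtracting the takinib neutrophil profile in proportion to the tracers gave smaller ratios for most members. Nfkbia was then 1.85 in macrophage-like, 3.47 in epithelial-like, 3.55 in fibroblast-like, 2.46 in endothelial-like, 2.51 in T-like and 3.95 in B-like cells. Tnfaip3 was between 2.09 in T-like and 5.16 in B-like cells. Nfkbid was 1.12 in epithelial-like, 1.69 in fibroblast-like and 14.9 in B-like cells, whose takinib level was near that of neutrophil-like cells. Members called higher then numbered 2 in macrophage-like cells (6.09% of all genes), 2 in epithelial-like cells (6.4%), 3 in fibroblast-like cells (6.32%), 3 in endothelial-like cells (3.44%), 4 in T-like cells (7.44%) and 5 in B-like cells (10.7%). Of 27 pairs of member and class called higher outside neutrophil-like cells, 19 remained at least 2-fold.

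Macrophage-like cells of the libraries lay largely in different clusters, so the class ratios mix levels and cell makeup. Cluster 1 (led by Apoe and Alox15; 2268 vehicle and 549 takinib cells) and cluster 3 (MHC class II genes; 1647 and 121) held most vehicle cells. Cluster 4 (U90926, Saa3, F13a1 and Arg1; 6 and 2351) and cluster 2 (Lpl and Gpnmb; 465 and 2135) held most takinib cells. In takinib, cluster 4 had the highest Nfkbia (1225 CPM), Tnfaip3 (305 CPM) and Tnip1 (132 CPM) of the macrophage-like clusters. Against a class ratio of 2.19, the Nfkbia ratio was 1.13 in cluster 11 (402 and 453 CPM), 1.28 in cluster 1, 1.33 in cluster 2, 1.78 in cluster 0 (led by Pclaf and Top2a; 198 and 184 cells) and 2.23 in cluster 3. Tnfaip3 ratios were 1.34 in cluster 1, 1.454 in cluster 11, 1.49 in cluster 2, 2.37 in cluster 0 and 2.87 in cluster 3, against 2.63 in the class. Nfkbiz was lower in takinib in cluster 2 (162 and 118 CPM, 0.73) and in cluster 1 (0.82) and higher in clusters 0 (1.33) and 3 (1.37). In cluster 3 members called higher were 4 of 9, against 3.39% of genes, in cluster 2 1 of 9 against 7.17%, in cluster 0 1 of 9 against 4.3%, and in clusters 1 and 11 none, against 2.06% and 6.48%.

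Fibroblast-like cells of the libraries also lay in different clusters. Cluster 17 (Igfbp3, Col12a1 and Sfrp1) held 439 vehicle and 55 takinib cells, and cluster 18 (Dcn, Serpinb2 and Timp1) 259 and 297. Vehicle cells of cluster 17 had 71.0 CPM of Nfkbia. Within cluster 18 Nfkbia was 182 and 610 CPM (3.35, 2.90 to 3.89), against 5.24 in the class, and Nfkbiz 119 and 151 (1.27, 1.05 to 1.55), against 2.39. Tnfaip3 was 31.5 and 88.6 CPM there (2.81, 1.98 to 4.11). Members called higher in cluster 18 were 5 of 9, against 7.47% of genes, and 4 of these 5 (Nfkbib, Nfkbie, Nfkbid and Tnfaip3) had under 50 vehicle UMIs.

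Of 270 vehicle neutrophil-like cells, 254 fell in cluster 13, with Cxcr2 and Il1r2 among its leading genes, so the comparison within it is the nearest to like with like. There Tnip1 was 33.8 and 126 CPM (3.74, 2.08 to 7.53), Nfkbiz 248.95 and 593 (2.38) and Nfkbib 24.6 and 58.3 (2.37), the 3 of 9 members called higher, against 9.91% of genes. Nfkbib and Tnip1 reached 50 UMIs here through takinib alone, with 8 and 11 vehicle UMIs, so this count supports nothing on its own. Nfkbia was 1386 and 2011 CPM (1.451), Tnfaip3 341 and 295.4 (0.87), Nfkbid 197 and 141 (0.72, 0.55 to 0.94) and Cyld 129 and 61.4 (0.48, 0.34 to 0.67), where 19% of genes were called lower. Of the clusters present almost only in takinib, Nfkbia was 2714 CPM in cluster 14 (Ccl3 and Chil1; 4224 cells), 3185 in cluster 15 (1250 cells) and 4100 in cluster 24 (G0s2 and Cxcl2; 3031 cells). It was lower than in takinib cluster 13 in cluster 10 (Ngp, Ltf and Camp; 690 cells), at 926 CPM, with 431 of Nfkbiz and 132 of Tnfaip3. Cluster 24 also had 1102 CPM of Nfkbiz and 878 of Tnfaip3.

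**Figure D4:**
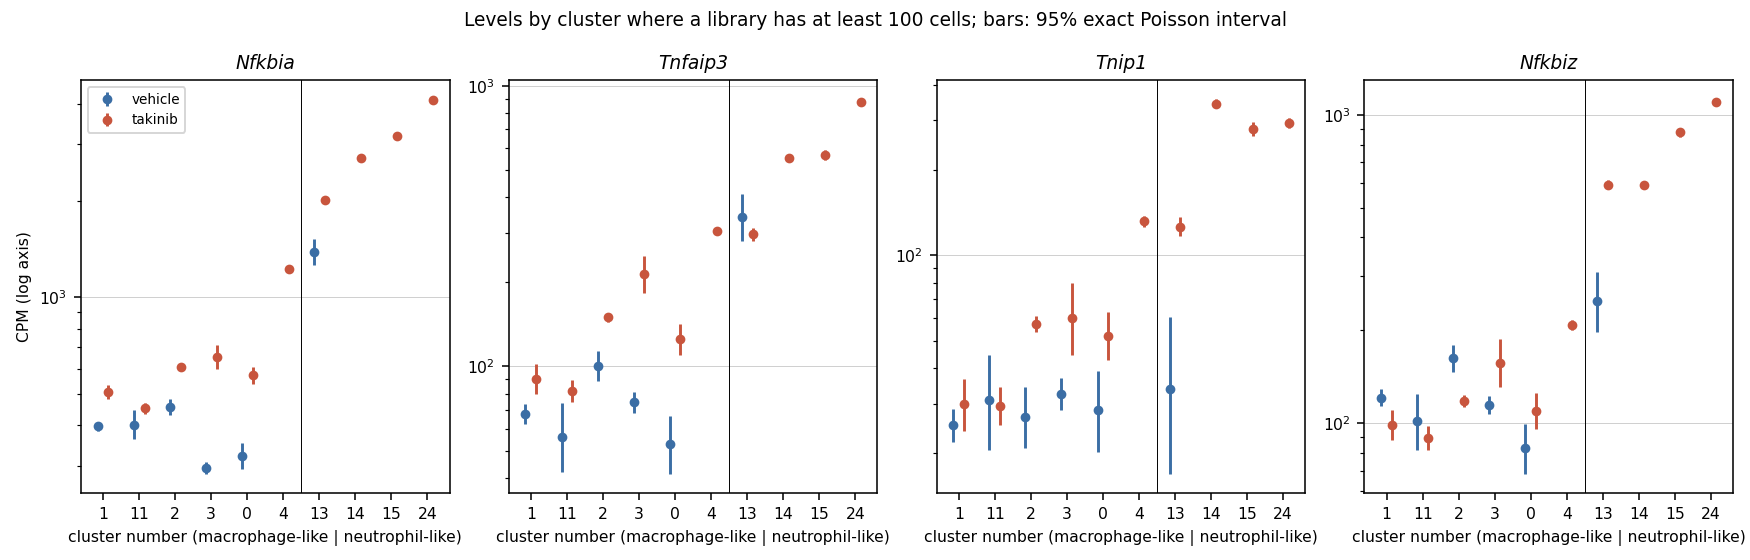
Levels of 4 genes (CPM, log axis) in macrophage-like clusters (left of the line) and neutrophil-like clusters (right), for each library with at least 100 cells in the cluster, with 95% exact Poisson intervals. Takinib cluster 4 stands above the other macrophage-like clusters, at 1225 CPM of Nfkbia, and vehicle neutrophil-like cells are shown in cluster 13 alone.

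Vehicle cells of male and female origin gave the size of a difference inside 1 group. In macrophage-like cells, male over female ratios of the 9 members ran from 0.73 for Tnfaip3 (93.2 CPM in 539 female and 68.2 in 1348 male cells) to 1.447 for Nfkbie. In epithelial-like cells Tnfaip3 was 37.3 CPM in female and 17.9 in male cells (0.48, 0.34 to 0.68), and Nfkbia 64.1 and 73.1 (1.14, 0.91 to 1.451). The takinib over vehicle ratio of epithelial-like Tnfaip3, 3.86 in all, was therefore 2.33 against female and 4.85 against male cells. Nfkbia in epithelial-like cells was 6.72 and 5.89 in the same way, and in macrophage-like cells 2.46 and 2.06. In neutrophil-like cells male over female Nfkbia was 2.17 (1.21 to 4.31, from 12 UMIs in 10 female cells). In fibroblast-like cells it was 0.96 (0.70 to 1.34) for Nfkbia and 0.45 (0.25 to 0.82) for Tnip1.

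The rest of the pathway was described from fixed lists, whose counts stand beside the shares of all genes already given for each class (6.59% higher in macrophage-like cells). Genes of NF-kB output, such as chemokines and Lcn2, were called higher for 16 of the 21 with enough counts in macrophage-like cells, 15 of 21 in epithelial-like, 17 of 21 in fibroblast-like and 18 of 18 in B-like cells. Their median ratio was 3.21 in macrophage-like, 3.30 in epithelial-like, 6.07 in fibroblast-like and 15.78 in B-like cells. That of S100a8 and S100a9 was 26.9, 92.6, 109 and 59.2 in the same order. Vehicle B-like cells held 419983 UMIs against 2970879 in takinib. Genes can thus reach 50 UMIs through takinib alone, so these counts support nothing on their own. No values at low S100a8 and S100a9 or after subtraction are given for this list. Of 6 genes known to need IkB-zeta, 4 were called higher in macrophage-like cells, with Il6 at 34.3 and 59.6 CPM (1.74) among those that were not. In macrophage-like cells Cxcl3 went from 60.8 to 1252 CPM (20.6), and Icam1 from 42.3 to 59.0 (1.39). Lcn2, a gene of neutrophils too, went from 11.6 to 1979 CPM. None of the 5 NF-kB subunit genes was called in macrophage-like, epithelial-like, fibroblast-like or T-like cells, and in macrophage-like cells they ran from 0.92 for Nfkb1 (99.98 and 92.2 CPM) to 1.48 for Relb (17.8 and 26.3). In neutrophil-like cells 3 of the 5 were called higher, and in endothelial-like and B-like cells 1 each. Of 12 upstream kinases none was called in macrophage-like cells, where their median ratio was 1.04. There Map3k8, the kinase TPL2, was 24.3 and 43.4 CPM (1.79) and Ikbkb, which encodes a catalytic subunit of the IkB kinase, 104 and 76.0 (0.73). Of 16 other negative regulators, with a median ratio of 1.14, 1 was higher in macrophage-like cells, Otud7b at 3.05 and 7.40 CPM (2.43). Zfp36, which encodes an RNA-destabilising protein, had the lowest ratio of that list there, at 746 and 470 CPM (0.63). Of 16 receptors and adaptors, with a median ratio of 1.05, 4 were called higher there. Among them Irak3, a brake on IL-1 receptor and Toll-like receptor signals, was 12.97 and 107 CPM (8.29), and Il1r1 was 2.098 and 22.5 (10.7). Irak3 was also a leading gene of neutrophil-like cluster 14, and neutrophil RNA was not subtracted from these values.

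Across the 14 points of 7 classes in 2 libraries, which share library depth and neutrophil RNA, the genes most like each member were named by Pearson correlation of log2 of CPM plus 10 over 9229 genes. For Nfkbia they were Il1b (r = 0.98), Trem1 (0.97) and Ccl4 (0.97), and for Tnfaip3 Slfn1 (0.98), Ltb4r1 (0.98) and Fpr2 (0.97). For Nfkbiz they were Il23a, Kdm6b and Rab11fip1 (each 0.95), for Nfkbib Pnrc1 (0.96), Mefv and Ly6i, and for Tnip1 Stfa3, Traf1 and Prok2. Nfkbid went most with Csrnp1 (0.95), Rab8a and Ppp1r3b, Nfkbie with Gpcpd1 (0.92), Tlr6 and Dok3, and Bcl3 with Atf4 (0.95), Cwc25 and Lemd3. Cyld went most with Thada, Ipcef1 and Acap1 (0.90 to 0.91).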

How the data were processed

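The deposited values are raw counts of UMIs per gene and barcode, made by the authors with Cell Ranger, version 4 for vehicle and 6.1.1 for takinib per the file headers; the build is mm10 (GRCm38) per the submitters' processing notes. The deposited takinib barcodes all held at least 500 UMIs, the vehicle barcodes were not filtered. Cells needed 1000 UMIs or more, 500 genes or more and no more than 20% mitochondrial UMIs, leaving 42000538 vehicle and 119726977 takinib UMIs. Scrublet removed 314 vehicle doublets; in takinib its threshold marked 0.00373%, so 1607 barcodes, the top 6% by score, were taken out. Both libraries were clustered together (scanpy 1.11.5, 2000 variable genes, 30 components, 15 neighbours, Leiden resolution 1) and clusters named from marker lists. A name needed 3 markers in at least 10% of cells; near ties stayed unnamed, 167 vehicle and 1265 takinib cells.

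Counts were summed per class and library and divided by the class total (CPM). Levels have exact Poisson intervals and ratios exact conditional binomial intervals at 95%, for counting error only; UMI counts of 1 library say nothing of the spread between mice. A gene at 0 counts was set to 3 counts and given as a bound. No test was run. Male and female cells were told apart by Xist and 4 Y-linked genes. The ratio intervals were tested on simulated data. The genes and lists were chosen with earlier results of these data known. Named genes besides the members were, from each pathway list, those with the highest and lowest ratios in macrophage-like cells, and for each member the 3 most correlated genes. Sequences are from RefSeq, GRCm38.p6, and gene positions from GENCODE M21. Protein sequences, planned for comparison, were not used here.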

Additional observations from a re-analysis of the deposited data

Results flagged for a closer look

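Ratios of takinib over vehicle that pointed in opposite directions in 2 classes, 1 of them past 2-fold and the other with its counting interval wholly on the other side of 1, concerned 3 genes; the difference between the classes was not tested. Nfkbid had a ratio of 3.20 in epithelial-like, 3.85 in fibroblast-like, 2.38 in T-like and 14.2 in B-like cells, against 0.61 in neutrophil-like cells. The neutrophil-like value was 0.95 with the median gene set to a ratio of 1 and 1.06 with each library clustered on its own. It was 1.00 against male vehicle cells (0.53 to 2.20, from 9 vehicle UMIs), so its direction depends on these choices. Bcl3 had a ratio of 2.08 in B-like cells and 0.78 in epithelial-like cells. The B-like value was 1.71 after subtraction of the neutrophil profile and 1.21 in takinib cells with the least S100a8 and S100a9, and the epithelial-like value was 1.01 against female vehicle cells. Cyld had a ratio of 0.41 in neutrophil-like cells and 1.31 in fibroblast-like cells. The first was 0.64 with the median gene set to a ratio of 1 and 0.73 with each library clustered on its own. Against male vehicle cells it was 0.75 (0.32 to 2.30, from 5 vehicle UMIs). The fibroblast-like value was 0.99 within cluster 18.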

How the results depend on the processing

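Each ratio and count was recomputed under 15 alternatives. Of the 31 pairs of gene and class at least 2-fold higher, 28 stayed above 1 wherever a value could be had and 12 stayed at least 2-fold. Restricting takinib cells to those with the least S100a8 and S100a9 in their class, chosen after seeing the data, left 6 of 23 such pairs at least 2-fold, and Nfkbid in epithelial-like cells (0.43), Nfkbid in fibroblast-like cells (0.80) and Tnfaip3 in fibroblast-like cells (0.98) turned below 1. The members at least 2-fold higher then numbered 0 in macrophage-like, 0 in epithelial-like, 2 in fibroblast-like, 0 in T-like and 2 in B-like cells. In cells without any S100a8 or S100a9 UMI, of which takinib had 95 macrophage-like and 72 epithelial-like, 0 of 6 pairs stayed at least 2-fold, the members higher numbered 0 in both classes (6.62% and 3.12% of all genes), and 1 was at least 2-fold lower in macrophage-like cells (8.34%). Subtracting the neutrophil profile left 3 in fibroblast-like cells, and Leiden resolution 2 left 2 there (2.76%). With every cell thinned to 1000 UMIs they numbered 2 in fibroblast-like (4.78%) and 1 in endothelial-like cells (3.23%); fewer genes then reached 50 UMIs. With no minimum of UMIs they numbered 7 in endothelial-like cells (11.3%). At a minimum of 2000 UMIs and 1000 genes a cell, 1 member was at least 2-fold lower in B-like cells (8.98%). In neutrophil-like cells 0 were at least 2-fold lower against male vehicle cells (34.2%), with each library clustered on its own (37%), or with the median gene set to a ratio of 1 (16.8%); the cause was not tested. That scaling moved the median gene by 0.63 on the log2 scale in neutrophil-like cells and left 6 members higher there (14.6%). A class with under 50 cells in a library gave no value under an alternative. No paired analysis was possible because each group has 1 sample. Depth limited the vehicle lymphocytes and neutrophils, where several members rest on fewer than 20 UMIs.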

Other observations

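Classes with fewer than 100 cells in a library were left out of the comparison. Perivascular-like cells (584 in vehicle, 14 in takinib) had 93.4 CPM of Nfkbia in vehicle and 453 in takinib, the latter from 34 UMIs. Plasma-like cells (40 and 202) had 74.5 and 381 CPM. Erythroid-like cells were nearly all from takinib (559 cells) and had 530 CPM of Nfkbia with 15064 CPM of S100a8 and S100a9. In unnamed cluster 5, led by Ly6c2, Ccr2 and Vcan, with 132 vehicle and 889 takinib cells, Nfkbia was 331 and 1091 CPM (ratio 3.30), Tnfaip3 25.0 and 193 (7.73, from 8 vehicle UMIs) and Cyld 81.2 and 47.3 (0.58). In vehicle barcodes with under 100 UMIs, which hold free RNA, Nfkbia was 192 CPM, Tnfaip3 75.2 and S100a8 330.1.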
